A study of Mus musculus with 6 samples.

Results

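Adherens junctions hold epithelial cells to each other. Classical cadherins on neighboring cells bind through their extracellular domains, and their cytoplasmic tails carry catenins. β-Catenin (Ctnnb1) or plakoglobin (Jup) occupies the distal part of the tail and recruits α-catenin (Ctnna1), which links the complex to F-actin and, under tension, to vinculin (Vcl). p120-Catenin (Ctnnd1) binds the juxtamembrane part of the tail and keeps cadherin at the cell surface by slowing its endocytosis. Nectins form a parallel adhesion system that reaches actin through afadin (Afdn). E-cadherin (Cdh1) is the cadherin of luminal mammary epithelium, and P-cadherin (Cdh3) that of the basal and myoepithelial layer.

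The genes described here are these cadherin, catenin and nectin-complex genes, Cdh1, Cdh3, Ctnna1, Ctnnb1, Ctnnd1, Jup, Afdn, Nectin4 and Vcl, which are 9 of the 47643 genes in the deposited counts. They were chosen by name, and Ctnnd1 was selected in addition on its high measured dispersion over the tumors, so its spread is a description and not a test. All 9 had counts, and 8 passed the filter on low counts that left 12088 genes; Cdh3 did not pass.

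Tumors came from MMTV-PyMT mice of the FVB/N strain, whose transgene expresses the polyomavirus middle T antigen in mammary epithelium from the mouse mammary tumor virus promoter. All 6 tumors had the same treatment: B20-4.1.1, an antibody to VEGF-A, was given intraperitoneally at 5 mg/kg, 2 times per week for 6 weeks, from 7 weeks of age. CD45-EPCAM+ cells were sorted from each, and their RNA was read as 3′ libraries. The study's methods describe the sorted cells as also negative for CD31 and PDGFRα. Pecam1 and Pdgfra, in the endothelial and fibroblast marker lists used below, code for these. The labels form 1 group and give no hypoxia class, so the tumors are numbered 1 to 6 and no groups were compared. These are bulk libraries, in which fewer cells of a type and less RNA per cell cannot be told apart, and the spread between samples holds both the differences between tumors and those of handling.

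Counts on genes ranged from 2509482 in tumor 2 to 5893246 in tumor 1. The floor, set at 3 counts, was 0.509 to 1.20 CPM (the unit of level used here, a gene's counts relative to all counts on genes in its library). Tumor 1 stood apart: its library correlated with the rest at a median of 0.788 across genes, where each of the 5 remaining libraries reached 0.905 to 0.939. Ranges without tumor 1 are therefore given for each of the 9 genes whose lowest or highest value was in that tumor and that passed the filter. Luminal markers were high in every tumor (7 genes, together 2419 to 3689 CPM; Epcam, the gene of the sorted surface antigen, 611 to 972 CPM). Of the contractile myoepithelial genes, Acta2, Myh11 and Cnn1 lay between 0 and 1.21 CPM, while Mylk had 27.1 to 65.7 CPM. The summed level of 9 basal and myoepithelial genes was 172 to 536 CPM, that of 8 immune genes 15.5 to 219 CPM and that of 5 erythroid genes 5.66 to 864 CPM, with both of the last highest in tumor 3. Fibroblast genes (7) together reached 15.3 to 26.4 CPM and endothelial genes (5) 1.59 to 4.12 CPM.

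Cdh1 was the most abundant of the adhesion genes and among the steadiest. It measured 1176, 1255, 1508, 1798, 1603 and 1654 CPM in tumors 1 to 6, a 1.53-fold range from lowest to highest (1.43-fold without tumor 1). Tumors 1 and 2 were the lowest and the others lay close together. In GRCm38 the gene occupies chromosome 8 from 106603351 to 106670246, on the plus strand. Cdh3 lies just upstream on the same strand (106510891 to 106557297) and was near the floor, with 5, 1, 2, 1, 12 and 1 counts in tumors 1 to 6, or 0.195 to 2.40 CPM. Tumor 5 held the most, but its exact Poisson 95% interval (1.24 to 4.19 CPM) overlapped that of tumor 1 (0.275 to 1.98 CPM). These intervals cover counting error only. Tumor 5 also had the highest sum of the basal list, 536 CPM against 172 to 354 CPM in the other 5, most of it from the basal keratins Krt14 (359 CPM) and Krt17 (127 CPM). The other 4 genes of the list that passed the filter were highest elsewhere: Krt5 and the basal transcription factor gene Trp63 were highest in tumor 4 (17.4 and 16.0 CPM, against 10.2 and 4.59 CPM in tumor 5), the kinase gene Mylk in tumor 1 (65.7 against 32.1 CPM), and the oxytocin receptor gene Oxtr in tumor 6 (3.71 against 2.00 CPM). In all, 6 of the 9 genes passed, and Acta2, Myh11 and Cnn1 did not. The part of basal cells in the level of Cdh3 was not tested. Of 12 other cadherins, none passed the filter and 9 were at or under the floor in all 6 tumors. The exceptions were the N-cadherin gene Cdh2 and the R-cadherin gene Cdh4 (named after its values were seen), each with at most 5 counts in a tumor, and the T-cadherin gene Cdh13, with 14 counts in tumor 3.

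**Figure D1:**
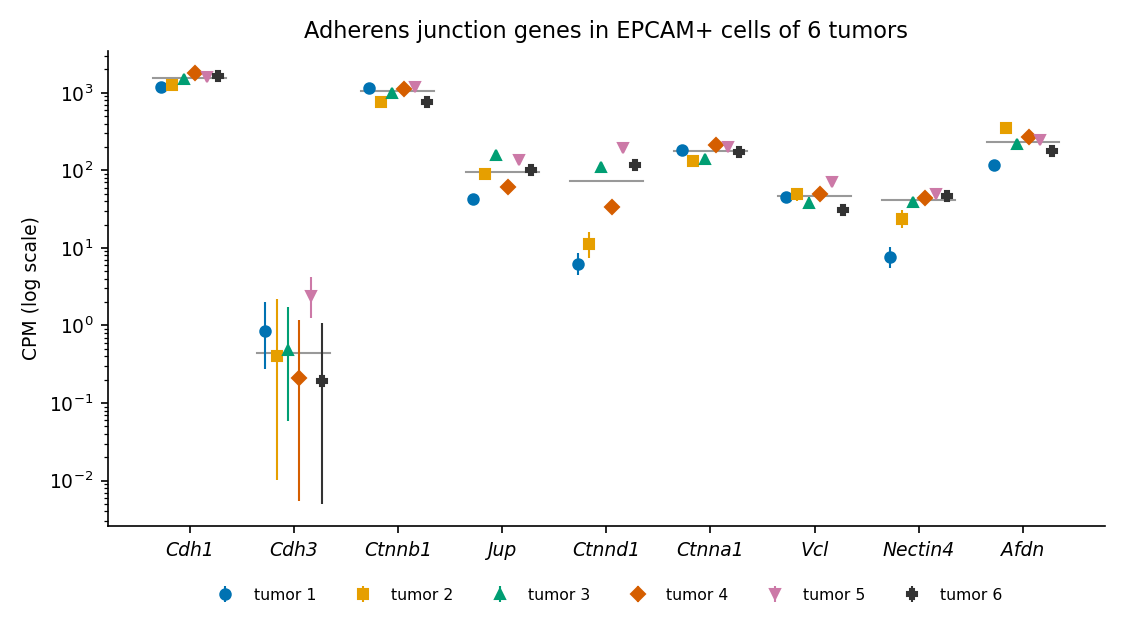
Levels of the 9 adherens junction genes in CPM (log axis), 1 point per tumor with its exact Poisson 95% interval; horizontal lines are the medians of the 6 tumors. Cdh1 lies between 1176 and 1798 CPM and Ctnnb1 between 767 and 1184 CPM. Ctnnd1 runs from 6.28 to 194 CPM, and Cdh3 stays at or under 2.40 CPM.

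The catenins that bind the distal cadherin tail differed in how steady they were. Ctnnb1 (chromosome 9, 120929216 to 120960507, plus strand), which is both a junction protein and the transcriptional effector of Wnt signaling, measured 1159, 767, 994, 1125, 1184 and 770 CPM in tumors 1 to 6, a 1.54-fold range. Tumors 2 and 6 were the lower pair. Jup (chromosome 11, 100368958 to 100397763, minus strand), whose product also serves desmosomes, measured 42.6, 89.3, 159, 61.5, 137 and 102 CPM, a 3.72-fold range. Tumors 1 and 4 were low and tumors 3 and 5 high, and without tumor 1 the range was 2.58-fold. Relative to 100 counts of Ctnnb1, Jup had 3.67 counts in tumor 1 and 5.46 in tumor 4, and 11.6 to 15.9 in the other 4.

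Of the genes of the link to actin, Ctnna1 varied little and Vcl more. Ctnna1 (chromosome 18, 35118859 to 35254779, plus strand) measured 181, 133, 139, 210, 202 and 171 CPM, a 1.58-fold range, and stayed between 14.0 and 22.2 counts per 100 counts of Ctnnb1. Vcl (chromosome 14, 20929398 to 21033676, plus strand) measured 45.0, 49.0, 38.3, 49.3, 70.7 and 31.0 CPM. Tumor 5 was the highest for Vcl, and the 2.28-fold range fell to 1.59-fold without it.

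Ctnnd1 was the exception among the catenins. It measured 6.28, 11.2, 112, 33.6, 194 and 119 CPM in tumors 1 to 6, from 37, 28, 460, 158, 971 and 609 counts. Tumors 1 and 2 were low, tumor 4 intermediate, and tumors 3, 5 and 6 high, and the Poisson intervals of these levels overlapped only within the pairs of tumors 1 and 2 and of tumors 3 and 6. The range was 30.9-fold. It was 17.4-fold without tumor 1 and 18.9-fold without tumor 5, and 30.9- to 33.6-fold under the other scalings tried. The 2 low values came from libraries that differed from the rest. Tumor 1 had the lowest correlation with the others, and tumor 2 the fewest counts and the largest share of unassigned reads (41.4%). In the tumors other than 1 and 2, Ctnnd1 ran from 33.6 to 194 CPM, a much narrower range. No single tumor stood apart by Dixon's criterion (the largest gap, at the top, was 0.400 of the range).

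The identifiers of the samples in the labels have 2 prefixes, and both held low and high values of Ctnnd1. The 4 tumors of 1 prefix (1, 4, 5 and 6) spanned 6.28 to 194 CPM, and the 2 tumors of the other (2 and 3) had 11.2 and 112 CPM. What the prefixes stand for is not stated in the labels.

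Set against its partners, Ctnnd1 varied nearly as much as its level did. Per 100 counts of Cdh1, it had 0.534, 0.889, 7.40, 1.87, 12.1 and 7.19 counts in tumors 1 to 6, a 22.6-fold range. Per 100 counts of Ctnnb1 the range was 30.2-fold. By contrast, Cdh1 relative to Ctnnb1 varied 2.12-fold and Ctnna1 relative to Ctnnb1 1.59-fold.

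**Figure D2:**
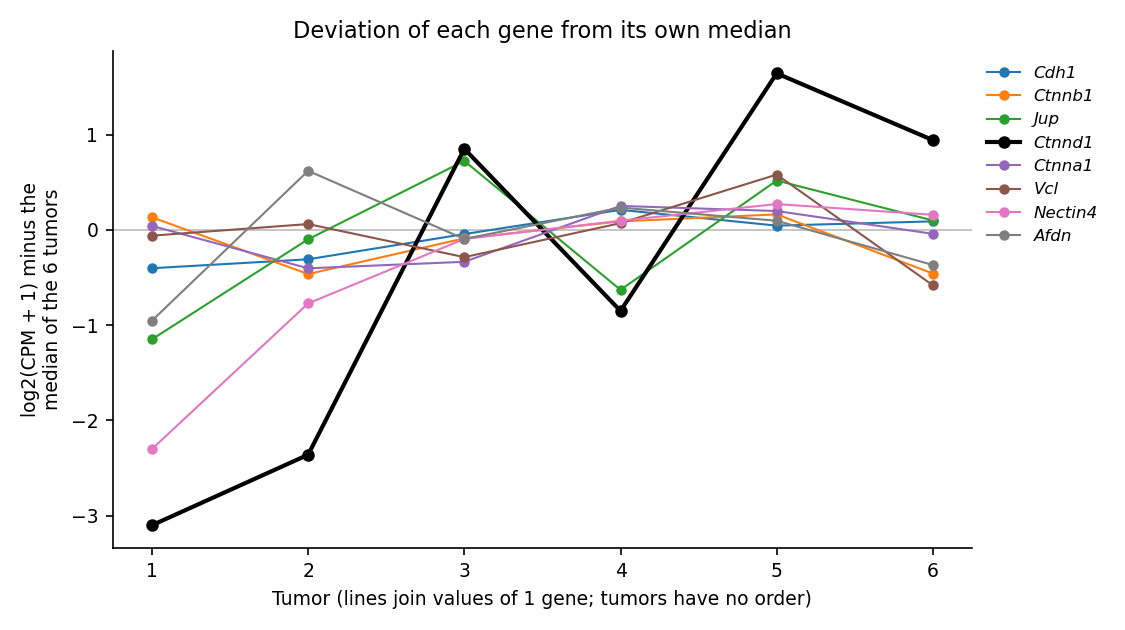
Deviation of the 8 genes that passed the filter from their own median, as log2(CPM + 1), for each tumor; lines join the values of 1 gene and the tumors have no order. Ctnnd1 (black) spans 4.74 log2 units, Nectin4 and Jup are low in tumor 1, and Cdh1, Ctnnb1 and Ctnna1 stay near 0.

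The annotation at the 3′ end of Ctnnd1 was examined because these libraries read only that end. Ctnnd1 lies on chromosome 2 from 84600071 to 84650765, on the minus strand (GRCm38, GENCODE M21). Its last exon has 2833 bases (84600071 to 84602903), of which the 1465 bases from 84601439 to 84602903 are also exon of Gm28635, a gene model on the same strand. Gm28635 had 0 counts in every tumor, and a read within the shared exonic bases belongs to both models. The other 1368 bases, at the 3′ end, are free of another gene, and 25 of the 30 annotated transcripts of Ctnnd1 end in them. Of these, 19 end within 100 bases of the gene's end and 6 end about 710 bases upstream, so that the annotation gives more than 1 region of transcript ends. Which of them the cells of each tumor used was not tested, since the counts are summed per gene.

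Ctnnb1 and Vcl had annotated antisense neighbors at the 3′ end. Exons of Ulk4 cover 95% of the last 500 exonic bases of Ctnnb1, and Ulk4 had 2 to 15 counts. Exons of Ap3m1 cover 100% of that stretch of Vcl, and Ap3m1 had 101 to 234 counts. The kit keeps strand, but whether counting used it is not given in the sources used here, so the values of Ctnnb1 and Vcl carry that uncertainty. Apart from the antisense exons of Ulk4 and Ap3m1, no gene of the 9 shared any of the 451 windows of 50 bases in its last 500 exonic bases with another annotated gene.

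**Figure D3:**
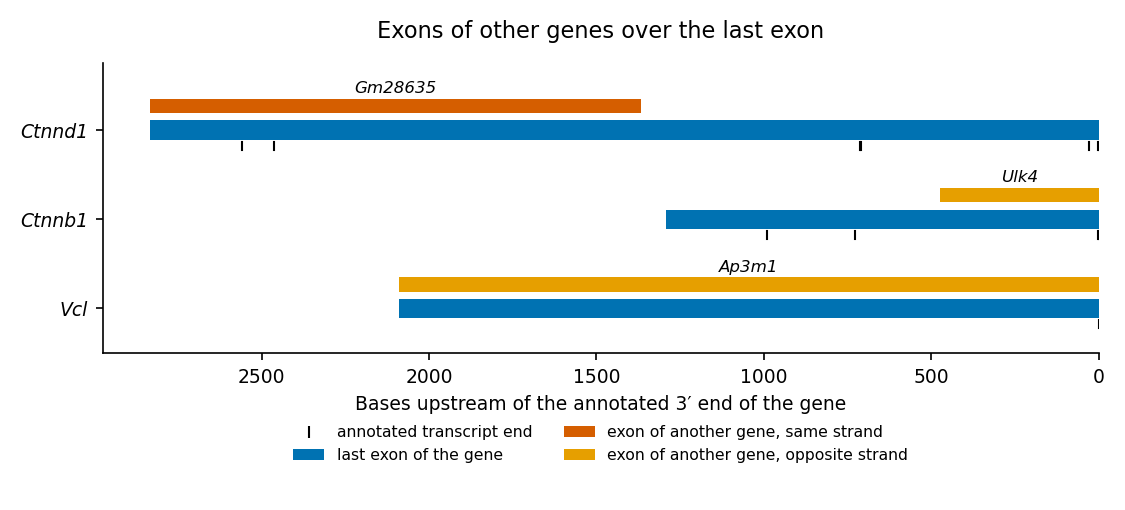
Last exons of Ctnnd1, Ctnnb1 and Vcl in bases upstream of the 3′ end (blue), with exons of other genes on the same strand (red) or the opposite strand (orange) and annotated transcript ends (ticks). The last 1368 bases of Ctnnd1 are free of Gm28635, while Ulk4 and Ap3m1 overlap the ends of Ctnnb1 and Vcl.

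Both genes of the nectin system were lowest in tumor 1. Nectin4 (chromosome 1, 171370099 to 171388598, plus strand), an adhesion receptor abundant in many carcinomas, measured 7.64, 23.9, 38.8, 44.5, 50.3 and 46.5 CPM, a 6.59-fold range. Tumor 1 was the lowest, tumor 2 the next, and the other 4 lay between 38.8 and 50.3 CPM. Without tumor 1 the range was 2.10-fold, so that the spread of Nectin4 rests on that library. Afdn (chromosome 17, 13760539 to 13906150, plus strand) measured 119, 356, 216, 272, 247 and 179 CPM, a 2.99-fold range that was 1.99-fold without tumor 1. Among 6 further nectins and nectin-like genes, all passed the filter. Nectin2, the widely expressed nectin, had 54.6 to 106 CPM with tumor 1 highest, opposite to Nectin4. The poliovirus receptor gene Pvr had 37.9 to 94.0 CPM and the nectin-like adhesion gene Cadm1 65.5 to 120 CPM.

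Tumor by tumor, 5 of the 8 genes were lowest in tumor 1 and 4 of the 8 were highest in tumor 5, where 28.8% and 18.5% of all 12088 genes had their lowest and highest value. In tumor 5, all 8 were above their own median. The median deviation of the 8 from their own medians was -0.68 log2 units in tumor 1 and 0.23 in tumor 5, against 0.04 and 0.02 over all genes.

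Compared per length, as TPM from union exon lengths, the order of the medians was Cdh1 (855), Ctnnb1 (527), Ctnna1 (68.8), Afdn (57.0), Jup (37.9), Nectin4 (28.4), Ctnnd1 (25.3), Vcl (14.9) and Cdh3 (0.260). In 3′ libraries counts depend little on length, so this division mainly reweights the genes. Over the 6 tumors, the neighbors in this order that did not overlap were Cdh1 and Ctnnb1, Ctnnb1 and Ctnna1, and Vcl and Cdh3. Every other pair of neighbors overlapped. Nectin4 exceeded Ctnnd1 in 3 of the 6 tumors, and Ctnnd1 exceeded Vcl in 3 of the 6. The place of Ctnnd1 rested on single tumors: its median was 38.5 TPM, above Nectin4, without tumor 1, 2 or 4, and 12.1 TPM, below Vcl, without tumor 3, 5 or 6.

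The spread of each gene was set beside that of all genes by the biological coefficient of variation (BCV), edgeR's estimate of variation beyond counting noise. The dispersion (the square of the BCV) was also divided by its trend at that level. With few samples edgeR draws each dispersion toward the trend, so the BCV is not the measured spread. The plain coefficient of variation of CPM was 16.0% for Cdh1, whose BCV was 0.287, and 94.1% for Ctnnd1. Ctnnd1 had a BCV of 0.828, and its dispersion, 5.60 times the trend, ranked 26 of 12088. Nectin4 followed with a BCV of 0.490 (1.97 times the trend, rank 729) and Jup with 0.407 (1.35 times, rank 1951). Afdn, at 0.363, was on the trend (1.03 times). Vcl, Ctnna1, Cdh1 and Ctnnb1 were below it, at 0.765, 0.642, 0.630 and 0.608 times. The 8 genes had a median BCV of 0.334, close to the 0.354 of all genes, and 4 of the 8 exceeded their trend where 33.1% of all genes did. Counting Ctnnd1 itself, 35 genes, or 0.290%, had a log2 range at least as wide as that of Ctnnd1.

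**Figure D4:**
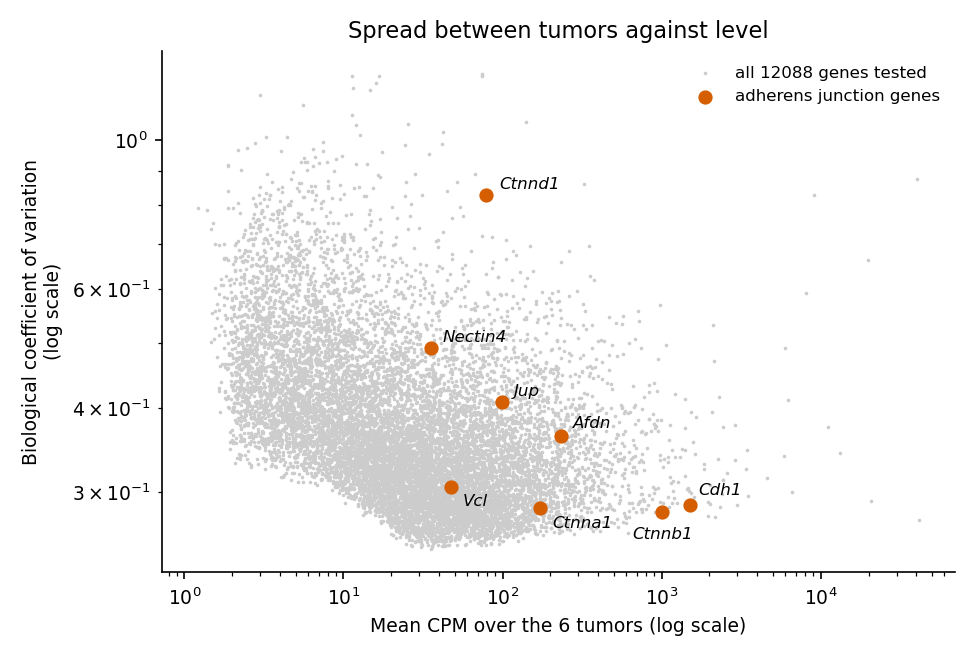
BCV against mean CPM (both axes logarithmic) for the 12088 genes tested (gray) and the 8 adherens junction genes that passed the filter (orange). Ctnnd1, at a BCV of 0.828, lies above nearly all genes of its level, while Cdh1, Ctnnb1, Ctnna1 and Vcl lie at 0.280 to 0.305.

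These samples were collected to ask how hypoxia arising under B20-4.1.1 affects tumor cells. As no class is given, each gene was related to the 3-gene hypoxia score of the study's methods, the mean TPM of Vegfa (the VEGF-A ligand), Slc2a1 (the glucose transporter GLUT1) and Car9 (carbonic anhydrase IX). The score was 48.5, 37.2, 51.4, 76.6, 94.4 and 47.3 TPM in tumors 1 to 6. Tumors 4 and 5 were the highest and the other 4 lay between 37.2 and 51.4. With edgeR's quasi-likelihood test and Benjamini-Hochberg adjustment, 0 of the 12088 genes (0%) had an adjusted p under 0.05, and 0 of the 8 adhesion genes did. The lowest adjusted p of any gene was 0.445, and 512 genes had an unadjusted p under 0.05, with none of the 8 among them. DESeq2 called 18 genes, none of them of the 8.

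Slopes are the log2 change per doubling of the score. Ctnnd1 had the steepest, 1.50 ± 1.09 (SE, n = 6; edgeR adjusted p = 0.954), which was 0.22 without tumor 5, the tumor with the highest score and the highest Ctnnd1, and 2.32 without tumor 6. With the identifier prefix as a term it was 1.51, and in the 4 tumors of 1 prefix 1.01; a slope within the other prefix, with 2 tumors, was not computed. Nectin4 had 0.71 ± 0.60, Vcl 0.44 ± 0.32, Ctnna1 0.37 ± 0.32, Ctnnb1 0.36 ± 0.34, Cdh1 0.23 ± 0.36, Jup 0.17 ± 0.51 and Afdn -0.09 ± 0.43 (adjusted p from 0.954 to 0.982). The slope of Vcl was 0.04 without tumor 5. In all, 7 of the 8 slopes were positive, against 46.8% of all genes, and the median was 0.37 against -0.04. This count is not stable: the slope of Jup was -0.57 without tumor 5 and 0.01 without tumor 1, and that of Afdn was positive in 4 of the alternatives (0.11 to 0.76), among them 0.70 without tumor 2. The SE exceeded the slope for Cdh1, Jup and Afdn. A p above the threshold does not show that a gene is unrelated to the score.

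**Figure D5:**
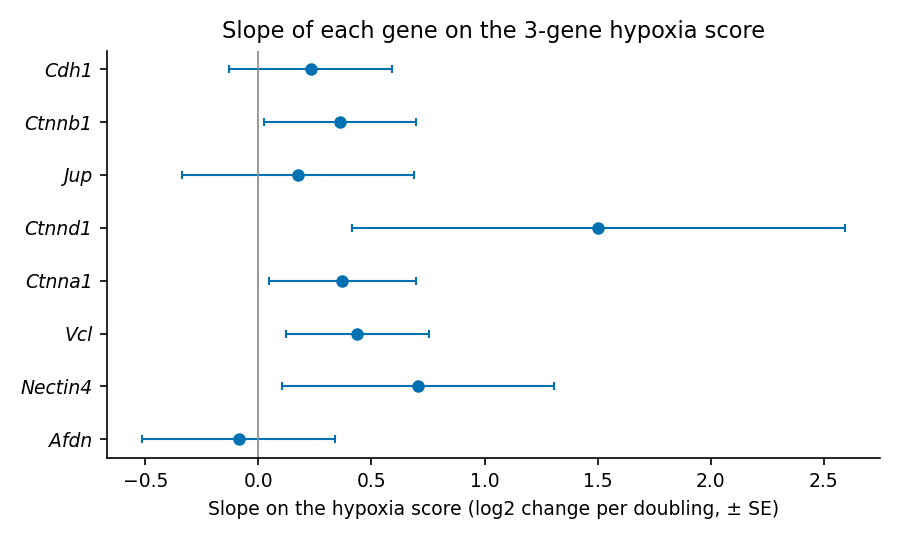
Slope of each gene on log2 of the hypoxia score (log2 change per doubling; point, estimate; bar, ± 1 SE; 6 tumors). The slope of Ctnnd1, 1.50 ± 1.09, is the largest and least precise, and that of Afdn, -0.09 ± 0.43, is the only negative one but turned positive in 4 of the alternatives; none had an adjusted p under 0.05.

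Other genes of the junction were followed in lists, and in each list 0 genes passed the test in either direction. Among 8 further genes of the catenin and armadillo families, 5 passed the filter. Ctnnbip1, which codes for an inhibitor of the binding of β-catenin to TCF factors, had 312 to 436 CPM, and Pkp4, an armadillo protein related to p120-catenin, 48.5 to 105 CPM. Ctnnd2, the δ-catenin of neurons, reached 30 counts (5.99 CPM) in tumor 5, the highest of the other tumors being tumor 3 (1.45 CPM). The α-catenin genes Ctnna2 and Ctnna3 had 0 counts in all tumors.

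Of 18 linkers of the junction to actin and microtubules, 17 passed the filter, with a median slope of 0.01. Their summed level lay between 3328 and 4482 CPM. The largest parts were the actin cross-linker Actn4 (338 to 1177 CPM), the membrane-actin linker Ezr (409 to 698 CPM), nonmuscle myosin heavy chain Myh9 (493 to 710 CPM) and the scaffold Iqgap1 (476 to 610 CPM). Actn4 and Myh9 were lowest in tumor 1 and highest in tumor 5, the same tumors as for Ctnnd1. The talin gene Tln1 went the other way, being highest in tumor 1 (509 CPM) with 184 to 242 CPM elsewhere. Over all 12088 genes, 28.8% had their lowest value in tumor 1 and 18.5% their highest in tumor 5. The polarity scaffold Pard3 had 174 to 297 CPM.

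All 11 genes of cadherin turnover and proteolysis passed the filter. Ptprf, a receptor tyrosine phosphatase that can act on β-catenin, had 643 to 1009 CPM, and Arf6, a GTPase of endocytic traffic, 294 to 641 CPM. Adam10, a sheddase of E-cadherin, had 29.9 to 87.2 CPM and was lowest in tumor 1. Adam15, of the same list, went the other way, with 154 CPM in tumor 1, its highest, and 48.7 CPM in tumor 5, its lowest.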

How the data were processed

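Counts per gene were deposited raw, 1 file per tumor. The authors prepared QuantSeq FWD 3′ libraries with identifiers (UMIs) of 6 bases, aligned reads to GRCm38/mm10 with STAR 2.5 and made the counts with HTSeq, per the labels and methods. UMI collapsing, strand use in counting and the annotation release are not given in the sources used here. Unassigned reads (16.1 to 41.4%) were left out of library sizes.

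CPM was computed over all named genes, and TPM from union exon lengths of GENCODE M21, which held 47224 of the 47643 identifiers. Overlaps at 3′ ends were read from the same annotation. Genes passing filterByExpr (minimum count 10, total 15, group size 3) were fitted with edgeR 4.0.16 (TMM, factors 0.911 to 1.06; quasi-likelihood F test of the slope on log2 of the score, all 6 tumors, Benjamini-Hochberg adjustment, threshold 0.05). On simulated data with a slope of 2 in 200 of 12088 genes, 62% were recovered and 3.125% of 128 calls were false. Simulated dispersions lay on the trend, while that of Ctnnd1 was 5.60 times the trend. The slope of 2 exceeded that of each of the 8 genes, so the 62% does not give their chance of being called. DESeq2 1.42.0, R 4.3.3 and Python 3.11.15 were also used. Alternatives were 3 other scalings, a pseudocount of 0.5 in place of 1 CPM, no filter, other scores, the identifier prefix, and each tumor left out.

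The genes described and the pathway and marker lists were chosen with earlier results of these data known. Left out of the lists, and not reported here, was 1 gene. Named from the lists were genes with a median of at least 50 CPM or with 1 tumor past Dixon's criterion, and families with under 3 counts in every tumor. Exceptions, named after their values were seen, were Cdh4, Plekha7, Tjp1 and the markers Acta2, Myh11, Cnn1, Krt5, Trp63, Mylk and Oxtr. For Ctnnd1, Cdh1 and Cdh3, the 3 genes (mean of at least 10 CPM) nearest in profile were named, by root mean square difference of log2(CPM + 1) centered on each gene. Poisson intervals were exact, at 95%. The labels give 6 identifiers but do not state that tumors came from separate mice. The p-values therefore weigh each slope against the variation left between these samples, not between mice. The CD45+ fraction and untreated tumors were not analysed here.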

Additional observations from a re-analysis of the deposited data

Results flagged for a closer look

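Of 124 measures (the 9 genes, their ratios, the list genes with at least 10 counts in a tumor and the list sums), 29 had 1 tumor whose gap to the nearest other passed Dixon's criterion for 6 values. For normally distributed values, chance alone flags about 1 in 20, here 6.2. CPM and count ratios need not be so distributed, and the measures are not independent. Among the 9 adherens junction genes this was so for Cdh3 alone, with a gap of 0.703 of the range (tumor 5, 12 counts). Values below are gaps of the same kind.

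Of 65 pathway genes, 13 were singled out, 7 of them highest and 1 lowest in tumor 1. Over all 12088 genes, with or without such a gap, 34.2% had their highest and 28.8% their lowest value in tumor 1. Highest in tumor 1 were the talin gene Tln1 (0.820), Nectin2 (0.749), Ctnnbl1 (0.726), the plakophilin gene Pkp3 (0.678), the envoplakin gene Evpl (0.659), the zyxin gene Zyx (0.656) and Arf6 (0.626). Tcf4, which codes for the E-box factor E2-2, was lowest there (0.665). Of the luminal markers, the keratin gene Krt8 (0.729) and the claudin gene Cldn3 (0.796), were highest there too. Tumor 5 was highest for the α-actinin gene Actn1 (0.789), Ctnnd2 (0.783) and the basal keratin gene Krt17 (0.768), and lowest for the alveolar regulator Elf5 (0.667). Tumor 2 was highest for the endocytic adaptor Numb (0.648) and tumor 4 for the desmoglein gene Dsg3 (0.681).

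Tumor 3 was singled out for the sum of other cadherins (0.642), through Cdh13 (0.687), for the immune sum (0.832) and for the erythroid sum (0.926). The genes behind these were Lyz2 (0.852), Csf1r (0.811), C1qa (0.748) and Itgam (0.726), and Hba-a1 (0.947), Hbb-bt (0.934), Hbb-bs (0.897) and Alas2 (0.749). In tumor 3 Ctnnd1 was 112 CPM, and Jup, at 159 CPM, was at its highest; the part of immune or erythroid cells in these levels was not tested.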

How the results depend on the processing

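The count of genes related to the score was 18 by DESeq2, 10 of 21717 without the filter on low counts, and 0 to 2 when each tumor was left out, with 2 without tumor 1; in the remaining alternatives it was 0. The lowest adjusted p of an adherens junction gene over these alternatives was 0.692. Of their slopes, 99 kept the sign and 5 did not. The slope of Afdn turned positive with the geometric mean of the score genes (0.11), with the identifier prefix as a term (0.43), in the 4 tumors of 1 prefix (0.76) and without tumor 2 (0.70), with a range of -0.25 to 0.70 over the tumors left out. The slope of Jup was -0.57 without tumor 5, in a range of -0.57 to 0.46. The cause of these turns was not tested. The log2 spread of Ctnnd1 stayed between 4.00 and 4.89, and its slope between 0.22 and 2.32. No alternative for the spread left out tumors 1 and 2 together. Without tumor 1, the log2 spread was 1.04 for Nectin4 and 0.99 for Afdn, and without tumor 5 it was 0.65 for Vcl and 0.63 for Cdh3. With so few counts, Cdh3 allows no statement beyond being near the floor. No paired analysis was possible because the samples form 1 group.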

Other observations

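Desmosomes share plakoglobin with adherens junctions. Of 11 desmosome genes, 9 passed the filter and 0 were called for the score, with 6 positive slopes and a median of 0.41, against 46.8% positive and a median of -0.04 over all genes. Their sum was 680 to 1136 CPM and highest in tumor 1, where Jup was lowest (42.6 CPM). Pkp3, a desmosomal armadillo protein, had 491 CPM there and 186 to 285 CPM elsewhere. The desmoplakin gene Dsp had 74.7 to 179 CPM, the desmoglein gene Dsg2 95.6 to 157 CPM and the p53 target Perp 80.9 to 219 CPM. Of the transcription factors that repress Cdh1, 4 of 9 passed the filter. Tcf4 had 52.3 CPM in tumor 1 and 136 to 179 CPM elsewhere, and 3 of the 9 were at or under the floor in every tumor. All 9 epithelial activators passed, with Esrp1, a splicing regulator of epithelial cells, at 185 to 260 CPM and the grainyhead factor Grhl1 at 115 to 210 CPM. Klf4 ranged 7.59-fold, from 15.3 CPM in tumor 1 to 116 CPM in tumor 4.

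Among 8866 genes, those nearest to Ctnnd1 in profile over the 6 tumors were Pmpcb, a mitochondrial peptidase subunit, Rps23, a ribosomal protein, and Tmsb4x, the actin-sequestering thymosin β4, with root mean square differences of 0.50, 0.56 and 0.57 log2 units against a median of 1.82 for all genes. Each was lowest in tumors 1 and 2: Rps23 had 20.7, 19.5, 134, 43.8, 186 and 117 CPM in tumors 1 to 6. Of the 451 windows of 50 bases in the last 500 exonic bases of Rps23, 51.2% were also found in other annotated genes, so its counts are uncertain; this was 0% for Ctnnd1, Pmpcb and Tmsb4x. Nearest to Cdh1 were Wls (0.07), the carrier of secreted Wnt proteins, Sesn3 (0.07) and the coatomer gene Copb2 (0.09), against a median of 0.46. Nearest to Cdh3 were Sphk1 (0.09), Lhfpl2 (0.16) and Plxdc2 (0.18), against 0.63, a likeness that rests on its 12 counts in tumor 5. Likeness over 6 tumors is a description, and the libraries share the offset of tumor 1. Named after their values were seen, Plekha7, which codes for a binding partner of p120-catenin, had 6.28, 20.3, 18.2, 18.9, 34.5 and 16.6 CPM in tumors 1 to 6, and the tight junction scaffold Tjp1 4.41, 14.7, 23.3, 35.7, 33.1 and 29.3 CPM. Both were lowest in tumor 1, as were 28.8% of all 12088 genes and the linkers Actn4, Camsap3, Myh9 and Lmo7. Tln1, Zyx, Vasp, Ezr, Pard3 and Shroom3, among others of the same list, were highest there.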
